A study of Mus musculus with 6 samples.

Results

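Long intergenic noncoding RNAs (lincRNAs) were followed in cultured cDC1, a DC type known for cross-presenting antigen, with and without deletion of c-Jun and JunB. The members were selected on their measured level. An autosomal gene of the GENCODE class lincRNA was included when its mean reached 0.5 CPM (read pairs on a gene scaled to the library's total on genes) over the 3 fl/fl libraries or over the 3 Δ/Δ libraries. Of the 4890 autosomal lincRNA genes listed, 235 reached this level, 822 had reads but stayed under it and 3833 had no read in any library. In 203 members the level was reached in both genotypes, in 15 in fl/fl alone and in 17 in Δ/Δ alone. A further 5 lincRNA genes over the limit lie on the X or Y chromosome and were not members.

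The control group was c-Jun/JunB fl/fl, with both genes floxed, and the other group was c-Jun/JunB Δ/Δ Itgax-Cre, with the same floxed alleles and Cre driven by the promoter of Itgax, which encodes CD11c. Mice of both sexes and of a mixed 129 Sv × C57BL/6 background were used at 8 to 16 weeks of age. All bone marrow cultures received 80 ng/mL of FLT3L, the growth factor of DC precursors, and cDC1 were sorted on day 8 as CD24+CD11c+ cells without B220, CD115 or CD172a. The 3 libraries of each genotype are called replicates 1, 2 and 3. They held 25860931, 26788296 and 23666519 read pairs on genes in fl/fl and 24429016, 21693217 and 22874838 in Δ/Δ. The study describes these RNA-seq samples as individual mice, which the labels do not state, and p-values measure only the spread between them. In bulk RNA, fewer cells of a type and less RNA per cell cannot be told apart.

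LincRNAs are transcribed by RNA polymerase II like messenger RNAs and are often spliced and polyadenylated, but are usually shorter, with fewer exons and lower levels. Some remain in the nucleus as scaffolds of nuclear bodies, some bind proteins or microRNAs in the cytoplasm, and others serve mainly as precursors from which microRNAs or small nucleolar RNAs (snoRNAs) are cut. In myeloid cells, lincRNAs are known among the transcripts induced by microbial and interferon stimuli, and c-Jun and JunB are subunits of AP-1, a transcription factor that binds promoters and enhancers of many stimulus-dependent genes.

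In 11 members the gene body holds 1 or more microRNA hairpins on the same strand, 19 hairpins in all. Their mature sequences are shown first because the level of these members is that of the host transcript, not of the microRNA, which poly(A) libraries do not measure. Sequences and positions are from RefSeq (GRCm38.p6). Capitals mark the seed, bases 2 to 8. Mir142hg (chr11:87755577-87757270, plus strand) is the host of miR-142, a microRNA of blood cells. Mir155hg (chr16:84703167-84715245, plus strand) is the host of miR-155, which is induced on activation of DCs. Mir17hg (chr14:115042879-115046727, plus strand) carries the cluster of miR-17, miR-18a, miR-19a, miR-20a, miR-19b and miR-92a, in which miR-17-5p and miR-20a-5p share the seed AAAGUGC and miR-19a-3p and miR-19b-3p share the seed GUGCAAA.
miR-142a-5p: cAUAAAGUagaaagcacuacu
miR-142a-3p: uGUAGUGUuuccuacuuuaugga
miR-155-5p: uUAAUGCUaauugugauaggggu
miR-17-5p: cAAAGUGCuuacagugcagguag
miR-20a-5p: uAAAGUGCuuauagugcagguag
miR-19a-3p: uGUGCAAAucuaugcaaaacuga
miR-19b-3p: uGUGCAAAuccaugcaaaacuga
miR-18a-5p: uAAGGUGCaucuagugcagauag
miR-92a-3p: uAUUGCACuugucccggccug

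Hosts without a microRNA in their name are shown for the let-7 family, known from differentiated cells, and for miR-191 and miR-425. The member 6720427I07Rik (chr13:48532905-48546500, minus strand) spans 3 hairpins of the let-7 family, whose 5p arms share the seed GAGGUAG, and 4833445I07Rik (chr9:108567533-108569174, plus strand) spans those of miR-191 and miR-425.
let-7a-5p: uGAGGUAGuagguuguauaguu
let-7d-5p: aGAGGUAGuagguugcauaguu
let-7f-5p: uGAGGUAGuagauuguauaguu
miR-191-5p: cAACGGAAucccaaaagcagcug
miR-425-5p: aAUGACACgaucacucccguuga

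The targeted genes were read first. Jun was at 71.1, 52.8 and 62.9 CPM in fl/fl and 48.6, 43.7 and 60.0 CPM in Δ/Δ, so the genotypes overlapped. Its log2 fold change was −0.29 (SE 0.15, edgeR adjusted p = 0.345). Junb was at 315, 276 and 411 CPM in fl/fl and 111, 169 and 210 CPM in Δ/Δ, without overlap, with a log2 fold change of −1.02 (SE 0.25, edgeR adjusted p = 0.0729). Over the alternative fits the adjusted p of Junb ran from 0.0161, without a filter on low counts, to 0.228, without fl/fl replicate 1, and it was 0.0359 without Δ/Δ replicate 1, where the fold was under the limit. Junb was called without the filter, by DESeq2 (0.0209) and with the replicate number as a block (log2 fold change −1.05, edgeR adjusted p = 0.037). The labels do not say which part of either gene is deleted. The study reports deletion of both genes by quantitative RT-PCR. The cells were cDC1 and cDC2 sorted from spleen and cDC1 from lymph nodes, not these libraries. Δ/Δ below stands for the libraries so labelled. Itgax, the gene of the Cre promoter and a sort marker, was at 114, 129 and 152 CPM in fl/fl and 45.2, 54.5 and 68.5 CPM in Δ/Δ, a log2 fold change of −1.22 (SE 0.17, edgeR adjusted p = 0.0147). Without fl/fl replicate 1, 2 or 3 its adjusted p was 0.0526, 0.0781 and 0.0505.

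The labelled cell type was checked with 10 cDC1 genes. Their summed level was 10885, 11012 and 10612 CPM in fl/fl and 8632, 10294 and 9017 CPM in Δ/Δ, with Wdfy4 the most abundant and none at 0. The chemokine receptor gene Xcr1 fell from 447 ± 26.7 to 166 ± 40.5 CPM (SD, n = 3) and was the 1 cDC1 gene called (edgeR adjusted p = 0.00812, but 0.0569 and 0.0501 without fl/fl replicates 1 and 2), as it was by DESeq2 and by limma-voom, while 5 had an unadjusted p under 0.05, 4 lower and Cadm1 higher, and the median log2 fold change was −0.20. Cadm1 was at 224 ± 9.18 and 279 ± 20.8 CPM, without overlap (log2 fold change 0.32, edgeR adjusted p = 0.0615, and 0.0340 without Δ/Δ replicate 1), and Itgae had a log2 fold change of 1.10 (edgeR adjusted p = 0.343), but of 0.06 without Δ/Δ replicate 2. Tlr3 (470 ± 11.9 to 275 ± 50.3 CPM, log2 fold change −0.77, edgeR adjusted p = 0.0226) and Snx22 (427 ± 28.2 to 234 ± 58.3 CPM, −0.86, edgeR adjusted p = 0.0375) were also lower but under the 2-fold limit. Their adjusted p without fl/fl replicate 1, 2 or 3 was 0.108, 0.107 and 0.0885 for Tlr3 and 0.147, 0.149 and 0.130 for Snx22, which had 0.0602 without Δ/Δ replicate 2 and was called without Δ/Δ replicate 3 (log2 fold change −1.09, edgeR adjusted p = 0.00349). Among 9 cDC2 genes edgeR called 2 higher, Cd209a (49.2 ± 17.1 to 233 ± 33.7 CPM) and Cd4 (1.05 ± 0.601 to 5.11 ± 1.40 CPM), DESeq2 called 3 and limma-voom 2, 5 had an unadjusted p under 0.05, and the median log2 fold change was 0.95. Klf4 (82.8 ± 13.6 to 162 ± 36.0 CPM, log2 fold change 0.97, edgeR adjusted p = 0.0321) was under the 2-fold limit, with 0.158, 0.166 and 0.0558 without fl/fl replicates 1, 2 and 3 and 0.0502 without Δ/Δ replicate 3, and was called without Δ/Δ replicate 1 (1.03, edgeR adjusted p = 0.0203) or 2 (1.10, 0.0198). The number of cDC2 genes called was 1, 1 and 2 without fl/fl replicates 1, 2 and 3 and 4, 3 and 1 without Δ/Δ replicates 1, 2 and 3. The summed level of these genes was 224, 248 and 369 CPM in fl/fl and 523, 602 and 746 CPM in Δ/Δ. Cd4 had an adjusted p of 0.145 and 0.173 without fl/fl replicates 1 and 2 and of 0.0712 without Δ/Δ replicate 3. The part of these shifts in the lincRNA levels was not tested.

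In each library the 235 members together took a small share of the read pairs on genes, 0.455, 0.483 and 0.469% in fl/fl and 0.484, 0.481 and 0.509% in Δ/Δ. The means were 0.469% ± 0.0136 and 0.491% ± 0.0152 (SD, n = 3). Δ/Δ replicate 2 lay among the fl/fl libraries and the other Δ/Δ libraries above them. As levels chose the members, no test was made of this sum. Without Gm42418, the member with the most reads, the shares were 0.337% ± 0.0158 in fl/fl and 0.347% ± 0.0187 in Δ/Δ. Gm42418, Malat1 and Neat1 made up 63.6% ± 0.328 of the lincRNA reads in fl/fl and 63.1% ± 0.637 in Δ/Δ. Most members took few reads. A total of 70 had a mean under 1 CPM over the 6 libraries, 126 lay from 1 to 10 CPM, 34 from 10 to 100 CPM and 5 above that.

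The members were short transcripts with few exons. Exon length had a median of 2046 bases (168 to 20771), the median of the largest exon number per gene was 2, and 49 members had a single exon. Per kb of exon, their median level was 1.07 CPM, against 7.11 CPM per kb for the 11170 protein-coding genes tested. In 82 members exons overlapped those of another gene, in 21 on the same strand and in 69 on the opposite strand. The strand setting of the counting is not stated. Of 440 autosomal genes wholly covered by exons of the opposite strand, 87 held 10 or more read pairs over the 6 libraries, against 2 of 727 wholly covered by exons of the same strand, so antisense pairs were counted apart.

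Per kb of exon, Gm42418 had the highest level, 718 CPM per kb in fl/fl and 785 in Δ/Δ. RefSeq names the gene Rn18s-rs5, after 18S ribosomal RNA, and 1822 of its 1831 exon bases lie under exons of AY036118 and CT010467.1 on the opposite strand. Its libraries were at 1343, 1302 and 1300 CPM in fl/fl and 1551, 1336 and 1426 CPM in Δ/Δ, and the genotypes overlapped (log2 fold change 0.14, SE 0.06, edgeR adjusted p = 0.285). The neighbouring Gm26917, listed with it as holding ribosomal RNA sequence, was at 61.0 ± 8.99 and 79.0 ± 19.7 CPM (SD, n = 3). Neither of these 2 members was called by edgeR, DESeq2 or limma-voom, and neither had an unadjusted p under 0.05. The short Gm10076 (384 bases) was at 54.0 CPM per kb in fl/fl and 64.0 in Δ/Δ.

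**Figure D1:**
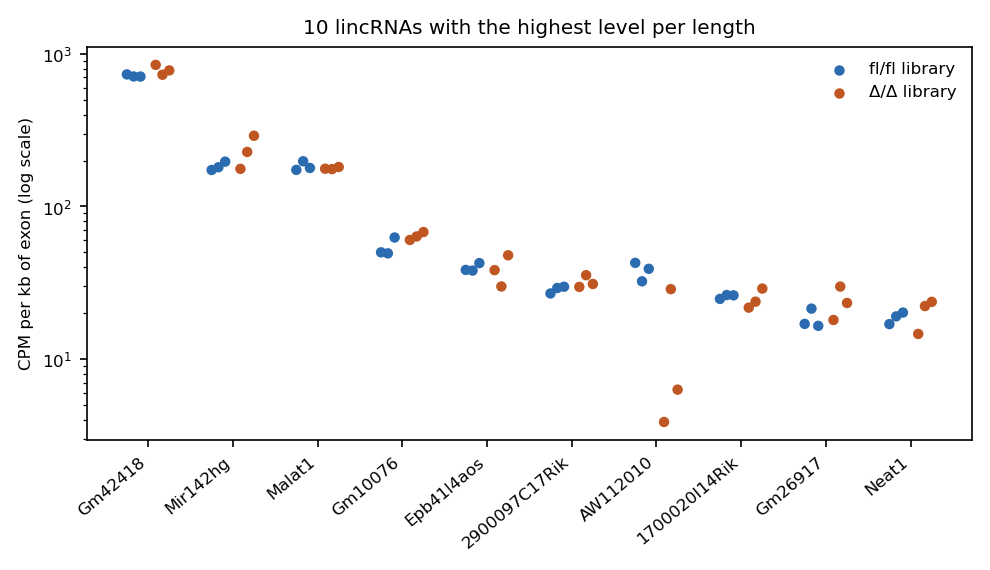
Level of the 10 lincRNAs with the highest mean CPM per kb of exon (vertical axis, log scale), with 1 point per library, blue for fl/fl and orange for Δ/Δ. AW112010 was at 38.0 CPM per kb on average in fl/fl and 13.0 in Δ/Δ. The points of Mir142hg are spread more widely in Δ/Δ than in fl/fl.

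Among nuclear and regulatory RNAs, Malat1, a component of nuclear speckles, was at 1213, 1381 and 1249 CPM in fl/fl and 1234, 1227 and 1267 CPM in Δ/Δ. The Δ/Δ libraries lay within the fl/fl range, and the log2 fold change was −0.04 (SE 0.06, edgeR adjusted p = 0.796) and changed sign without fl/fl replicate 2 (0.01). Neat1, the scaffold of paraspeckles, was at 352, 396 and 419 CPM in fl/fl and 304, 462 and 493 CPM in Δ/Δ, with Δ/Δ replicate 1 below and the other Δ/Δ libraries above all fl/fl libraries. Norad (2900097C17Rik in GENCODE), which binds Pumilio proteins in the cytoplasm, was at 141 ± 7.49 and 158 ± 14.8 CPM (SD, n = 3). Oip5os1 (1700020I14Rik), also known as Cyrano, was at 214 ± 6.84 and 206 ± 31.0 CPM. Lncpint, a p53-induced RNA, was near the limit, at 0.880 ± 0.260 and 1.32 ± 0.575 CPM. Of the 14 genes on this list 6 were members and 11 were tested, and 1 was called, Dubr, which is described with the lower members and of the fits with 1 library left out was called in 1, that without Δ/Δ replicate 1. The median log2 fold change of the list was 0.16, and Hottip, Miat and Rmst had no reads.

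The snoRNA hosts release snoRNAs, which guide the modification of ribosomal RNA, from their introns. Of the genes listed as such hosts, those classed as lincRNA and over the limit were Snhg6 (18.4 ± 0.551 CPM in fl/fl and 15.9 ± 2.38 in Δ/Δ), Snhg12 (17.4 ± 1.27 and 15.5 ± 1.99), Snhg20 (12.8 ± 0.531 and 12.7 ± 2.56) and Epb41l4aos (17.1 ± 1.08 and 16.6 ± 3.87), each with n = 3. In all 4 the genotypes overlapped. Snhg20, for one, was at 13.2, 13.0 and 12.2 CPM in fl/fl and 12.7, 10.2 and 15.3 CPM in Δ/Δ, with the fl/fl libraries inside the Δ/Δ range. The list does not hold every host among the members. Snhg10, outside it and named after its values were seen, was at 0.942 ± 0.0603 and 0.688 ± 0.174 CPM, without overlap (log2 fold change −0.45, SE 0.33, edgeR adjusted p = 0.499). Over the whole list, which holds genes of other classes too, 12 of 18 genes were tested, none was called by edgeR, DESeq2 or limma-voom, none had an unadjusted p under 0.05, and the median log2 fold change was −0.07.

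Of the microRNA hosts, Mir142hg had the second highest level per length among all members, 184 CPM per kb in fl/fl and 232 in Δ/Δ. Its libraries were at 46.6, 48.6 and 52.9 CPM in fl/fl and 47.4, 61.2 and 78.2 CPM in Δ/Δ. Δ/Δ replicate 1 lay among the fl/fl libraries and the other Δ/Δ libraries above them (log2 fold change 0.34, SE 0.17, edgeR adjusted p = 0.336). The log2 fold change was 0.52 without that library (edgeR adjusted p = 0.0359, under the fold limit) and 0.14 without Δ/Δ replicate 3 (0.676). Mir17hg was even across libraries, at 19.7 ± 1.17 and 20.7 ± 0.978 CPM (SD, n = 3), with overlapping genotypes (log2 fold change 0.08, SE 0.10, edgeR adjusted p = 0.696). The let-7 host 6720427I07Rik was at 4.67 ± 0.789 and 4.79 ± 0.584 CPM (SD, n = 3), and the miR-191 and miR-425 host 4833445I07Rik at 1.81 ± 0.568 and 2.75 ± 0.317 CPM, without overlap but with an edgeR adjusted p of 0.326. None of the 5 tested genes on the microRNA host list was called by edgeR, DESeq2 or limma-voom, none had an unadjusted p under 0.05, and their median log2 fold change was 0.08.

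Mir155hg varied widely between the Δ/Δ libraries. It was at 1.20, 1.23 and 1.01 CPM in fl/fl and at 0.409, 2.72 and 0.131 CPM in Δ/Δ. Δ/Δ replicate 2 was above every fl/fl library and the other Δ/Δ libraries were below all of them, so the means were alike (1.15 ± 0.117 and 1.09 ± 1.42 CPM, SD, n = 3) and the log2 fold change was −0.08 (SE 0.89, edgeR adjusted p = 0.974). Without Δ/Δ replicate 2 it was −2.06 (edgeR adjusted p = 0.0841, with 0.0841 to 0.994 over all alternatives), and without Δ/Δ replicate 1 or 3 it was 0.32 and 0.45.

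AW112010 (chr19:11047612-11055808, minus strand) is an immune-induced transcript of myeloid cells for which translation of a short reading frame has been described. It was at 34.3, 26.0 and 31.4 CPM in fl/fl and 3.11, 23.1 and 5.07 CPM in Δ/Δ. All Δ/Δ libraries were below all fl/fl libraries, but replicate 2 was close to them, and the log2 fold change of −1.54 (SE 0.67) was not called (edgeR adjusted p = 0.268). Without Δ/Δ replicate 2 it was −2.90 and called (edgeR adjusted p = 0.00314, with 0.00314 to 0.541 over all alternatives). Genes of mature DCs were read beside these values. The summed level of 6 such genes, led by Fscn1 and with none at 0, was 786, 509 and 619 CPM in fl/fl and 98.8, 1387 and 241 CPM in Δ/Δ, with none of the 6 called by edgeR, DESeq2 or limma-voom and none at an unadjusted p under 0.05, while edgeR called 3 of them lower without Δ/Δ replicate 2, the fit in which AW112010 was called. Genes induced by interferon were read as well. Of 24 tested, edgeR called 14 lower and none higher, DESeq2 17 lower and limma-voom 14, and 21 had an unadjusted p under 0.05. The edgeR count was 2, 2 and 9 without fl/fl replicates 1, 2 and 3 and 15, 13 and 10 without Δ/Δ replicates 1, 2 and 3. It was 8 with the replicate number as a block and 17 without a filter on low counts. These genes had a median log2 fold change of −1.46, and their summed level was 1219, 1181 and 923 CPM in fl/fl and 719, 677 and 794 CPM in Δ/Δ, led by Stat2 and with none at 0. The part of either in the AW112010 and Mir155hg levels was not tested.

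**Figure D2:**
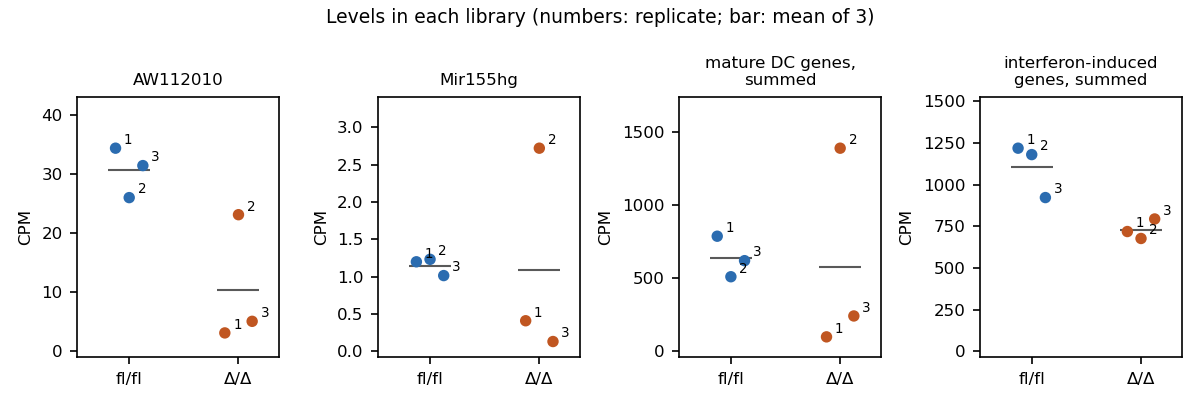
Level in CPM (vertical axes, from 0) of AW112010 and Mir155hg, and the summed CPM of 6 mature DC genes and of 24 interferon-induced genes, with 1 point per library, numbered by replicate, and a bar at the mean of each genotype. Δ/Δ replicate 2 is the highest Δ/Δ library in the first 3 panels, at 23.1, 2.72 and 1387 CPM, but the lowest in the interferon panel, at 677 CPM.

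Other lincRNAs known in immune cells were Pvt1, which lies beside Myc, Gm14005, also known as Morrbid and linked to the survival of short-lived myeloid cells, Mirt1, and Trp53cor1, also known as lincRNA-p21. Pvt1 was at 3.44, 3.10 and 3.00 CPM in fl/fl and 2.46, 1.98 and 1.31 CPM in Δ/Δ, without overlap (log2 fold change −0.72, SE 0.27, edgeR adjusted p = 0.215). Trp53cor1 was also without overlap, at 0.620 ± 0.0979 and 0.319 ± 0.0866 CPM (SD, n = 3), with an edgeR adjusted p of 0.256. Gm14005 was at 1.66, 0.859 and 1.27 CPM in fl/fl and 1.56, 0.461 and 0.0874 CPM in Δ/Δ, with Δ/Δ replicate 1 among the fl/fl libraries. Mirt1 was at 6.95 ± 1.15 and 6.17 ± 3.57 CPM. On the list of immune cell lincRNAs 5 of 14 were members and 7 were tested. None of these was called by edgeR or limma-voom, while DESeq2 called 2, edgeR called 2 without Δ/Δ replicate 2, and 4 had an unadjusted p under 0.05. Without the filter on low counts edgeR called 1 gene of the list, Gm16685, which was lower. The median log2 fold change was −0.83, and Carlr, Ifngas1 and Mirt2 had no reads.

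Of the 235 members 228 passed the filter on low counts and were tested among 12894 genes. A gene was called when the edgeR adjusted p was under 0.05 and the log2 fold change was 1 or more in size. By this rule 11 members were called, 4.82% of those tested, against 1.86% of all genes tested and 1.70% of the protein-coding ones. The count changed when 1 library was left out, which also leaves fewer replicates: it was 1, 1 and 3 without fl/fl replicates 1, 2 and 3 and 15, 12 and 4 without Δ/Δ replicates 1, 2 and 3. In Δ/Δ 5 members were higher (0.993% of all genes tested were) and 6 were lower (0.869%). Because a member can enter through the genotype in which it is high, these counts are a description. With members taken instead by their mean over all 6 libraries, blind to genotype, 10 of 215 tested were called. The genotypes did not overlap in 47 of the 228 tested members (20.6%), 27 higher and 20 lower in Δ/Δ, against 25.8% of all genes tested. The median log2 fold change was 0.09 in members and 0.00 in all genes, 130 members had a positive value and 98 a negative value, and 151 lay within 0.5 of 0. At an unadjusted p under 0.05 there were 36 members (15.8%), against 19.4% of all genes tested. A further member, Gm46224, named after its values were seen, passed the adjusted p but not the fold limit (9.34 ± 0.758 to 5.31 ± 0.162 CPM, log2 fold change −0.81, edgeR adjusted p = 0.0239, but 0.133, 0.137 and 0.0693 without fl/fl replicates 1, 2 and 3 and 0.0607 without Δ/Δ replicate 3).

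**Figure D3:**
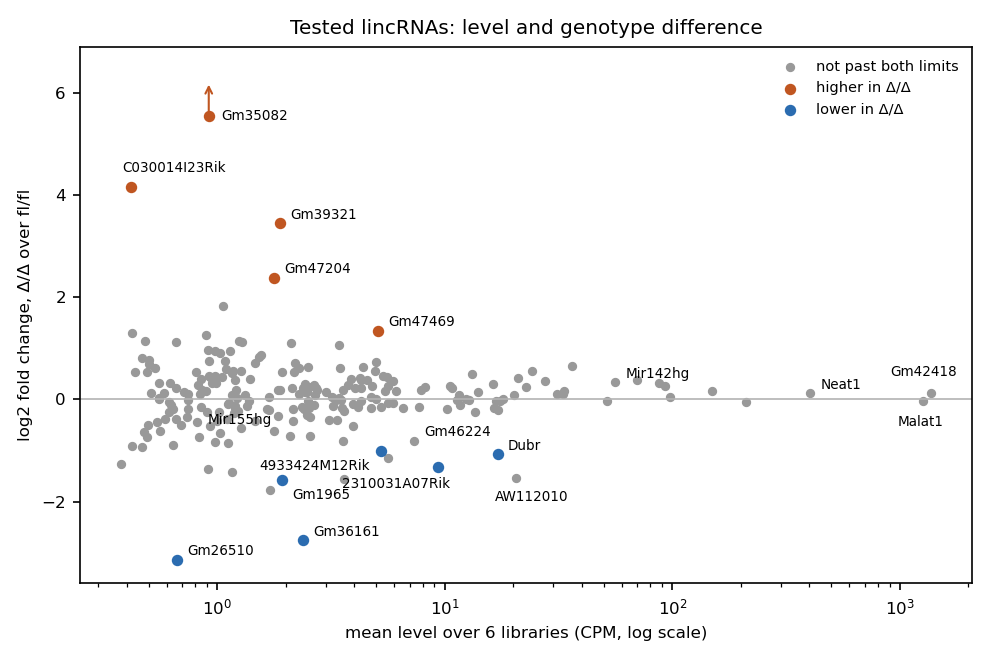
Mean level over the 6 libraries (horizontal axis, CPM, log scale) and log2 fold change of Δ/Δ over fl/fl (vertical axis) of the 228 tested lincRNAs, with the 5 called higher in orange, the 6 called lower in blue and the others in grey. Gm35082 had no fl/fl read and is drawn at its lower bound, with an arrow, and the members above 100 CPM lie close to 0.

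Of the 5 higher members, 4 were under 1 CPM in every fl/fl library, all but Gm47469. Gm39321, C030014I23Rik and Gm35082 are members through their Δ/Δ level alone, so their low fl/fl level is in part set by the entry rule. Gm39321 (chr9:42141993-42146506, plus strand, 3 exons) was at 0.155, 0.411 and 0.380 CPM in fl/fl and 2.78, 2.77 and 4.85 CPM in Δ/Δ. Every Δ/Δ library was above every fl/fl library, and the log2 fold change was 3.45 (SE 0.44, edgeR adjusted p = 0.0101). Gm47204 (chr9:44477928-44479759, minus strand, 1 exon) was at 0.271, 0.635 and 0.803 CPM in fl/fl and 3.32, 2.58 and 3.02 CPM in Δ/Δ, a log2 fold change of 2.39 (SE 0.40, edgeR adjusted p = 0.0233). On the opposite strand of the same stretch, C030014I23Rik (chr9:44468344-44482180) was at 0, 0.0373 and 0.0845 CPM in fl/fl and 1.02, 0.830 and 0.525 CPM in Δ/Δ, a log2 fold change of 4.17 (SE 0.72, edgeR adjusted p = 0.0254). Of the 1832 exon bases of Gm47204, 1806 are covered by exons of C030014I23Rik, so the 2 members share a locus.

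Gm35082 (chr7:100675088-100677760, plus strand, 3 exons) had 0 reads in each fl/fl library and was at 1.35, 0.922 and 3.24 CPM in Δ/Δ. Against a floor of 3 reads pooled over the fl/fl libraries, 0.0393 CPM, which covers counting error only, its Δ/Δ mean of 1.84 ± 1.23 CPM (SD, n = 3) was at least 46.7-fold higher (edgeR adjusted p = 0.0282). Gm47469 (chr13:74553910-74564256, minus strand, up to 5 exons) was at 2.67, 3.21 and 2.79 CPM in fl/fl and 4.99, 7.28 and 9.66 CPM in Δ/Δ, a log2 fold change of 1.35 (SE 0.27, edgeR adjusted p = 0.0416). Its Δ/Δ libraries were spread widely but all lay above fl/fl. The calls changed when 1 library was left out, a fit that also has fewer replicates. Without fl/fl replicate 1 or replicate 2 none of these 5 was called, with adjusted p-values of 0.0506 to 0.198 and 0.0630 to 0.163. Without fl/fl replicate 3, Gm39321 was called and the others had 0.0533 to 0.143. Without Δ/Δ replicate 2, Gm47469 was not called (0.0587), and without Δ/Δ replicate 3, Gm47204 and Gm47469 were not (0.0599 to 0.0871). limma-voom did not call Gm47469 either (0.0658), and 5 of its 12 alternative fits did. The sign held in each of these fits.

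**Figure D4:**
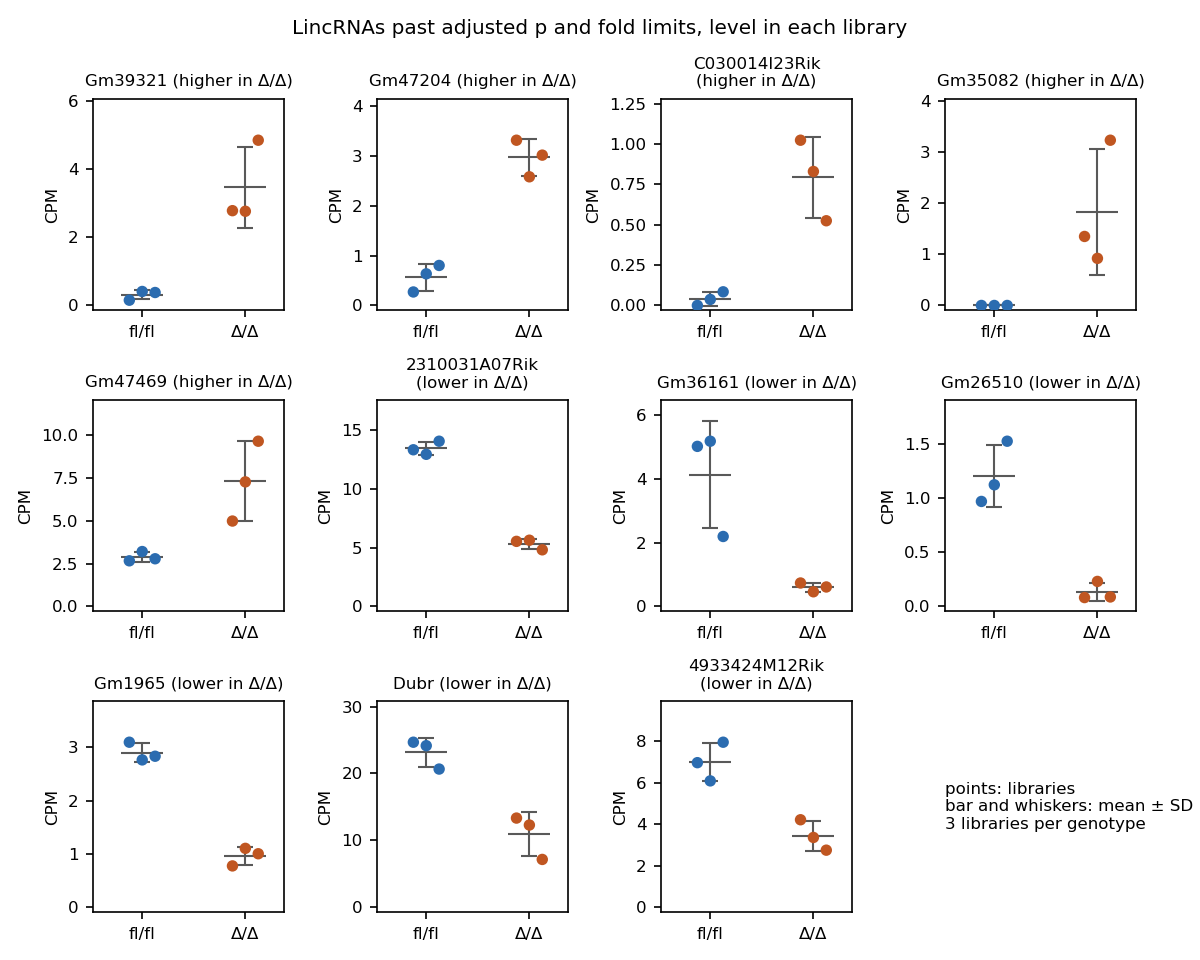
Level in CPM (vertical axes, from 0) of the 11 called lincRNAs, the 5 higher ones first, with 1 point per library, blue for fl/fl and orange for Δ/Δ, and mean ± SD of the 3 libraries of each genotype. In each panel the genotypes do not overlap, from Gm35082 with 0 CPM in all fl/fl libraries to Dubr with 20.7 to 24.7 CPM in fl/fl and 7.17 to 13.3 CPM in Δ/Δ.

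Among the lower members, 2310031A07Rik (chr11:46440362-46447248, minus strand, 2 exons) was called most steadily. It was at 13.3, 12.9 and 14.0 CPM in fl/fl and 5.53, 5.62 and 4.81 CPM in Δ/Δ, a log2 fold change of −1.33 (SE 0.13, edgeR adjusted p = 0.00417), and it was called in each of the 12 alternative fits. It overlaps Med7, a subunit gene of the Mediator complex, on the opposite strand, which covers 609 of its 990 exon bases. Med7 itself was at 27.2 ± 0.491 and 24.7 ± 1.51 CPM (SD, n = 3, edgeR adjusted p = 0.437). Dubr (chr16:50719294-50732773, minus strand), known from muscle differentiation, was at 24.7, 24.2 and 20.7 CPM in fl/fl and 13.3, 12.3 and 7.17 CPM in Δ/Δ. Its log2 fold change was −1.07 (SE 0.22, edgeR adjusted p = 0.0494). Next to the limit of the test lay 4933424M12Rik (chr4:107783720-107789921, plus strand), at 6.96, 6.08 and 7.94 CPM in fl/fl and 4.22, 3.37 and 2.75 CPM in Δ/Δ (log2 fold change −1.01, SE 0.21, edgeR adjusted p = 0.0496). The other 3 lower members were rare in Δ/Δ, and Gm26510 is a member through its fl/fl level alone. Gm36161 (chr13:120010390-120018931, plus strand, 4 exons) was at 5.03, 5.19 and 2.20 CPM in fl/fl, with replicate 3 apart from the others, and 0.737, 0.461 and 0.612 CPM in Δ/Δ (log2 fold change −2.76, SE 0.41, edgeR adjusted p = 0.0166). Gm26510 (chr17:70874349-70924996, minus strand, 3 exons) was at 0.967, 1.12 and 1.52 CPM in fl/fl and 0.0819, 0.230 and 0.0874 CPM in Δ/Δ (log2 fold change −3.14, SE 0.50, edgeR adjusted p = 0.0203). Gm1965 (chr6:89140994-89147388, plus strand, 3 exons) was at 3.09, 2.76 and 2.83 CPM in fl/fl and 0.778, 1.11 and 1.01 CPM in Δ/Δ (log2 fold change −1.58, SE 0.25, edgeR adjusted p = 0.0209). In all 3 the genotypes were well apart. Without fl/fl replicate 1 or replicate 2, 2310031A07Rik alone of the 6 lower members was called, and the others had adjusted p-values of 0.0940 to 0.202 and 0.0923 to 0.192. Without fl/fl replicate 3, Gm36161 was called as well and the other 4 had 0.0807 to 0.162. Without Δ/Δ replicate 2, Dubr and 4933424M12Rik were not called (0.0504 to 0.0722), and without Δ/Δ replicate 3, 2310031A07Rik alone was called. There Dubr passed the adjusted p (0.0265) but not the fold limit, and the other 4 had 0.0518 to 0.106. The sign held in each of these fits.

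Promoters were read because c-Jun and JunB bind DNA. By name and position 136 members matched a RefSeq gene and 111 of these had a promoter, here 250 bases before to 50 after the start site, as did 7 of the 11 called. Motifs were searched on both strands: the AP-1 motif TGANTCA, the cyclic AMP response element TGACGTCA, and the interferon-stimulated response element, written as GAAA, any 2 letters and GAAA. The AP-1 motif stood in 12 of 111 member promoters (10.8%), beside 7.81% of all 32851 promoters, the cyclic AMP element in 2 (1.80%, beside 1.79%) and the interferon element in 5 (4.50%, beside 3.44%). In 19 of the 111 the RefSeq start lies more than 1 kb from the GENCODE start, a limit chosen after the values were seen, and 1 of these, Gm38399, was matched to the protein-coding gene Nav1. In the other 92 the AP-1 motif stood in 10 (10.9%), the cyclic AMP element in 2 (2.17%) and the interferon element in 2 (2.17%, under the 3.44% of all promoters). All 7 called promoters are among the 92. Of these 7, 1 held the AP-1 motif and 1 the interferon element. Shown are these 2, that of the other higher member with an entry, and that of the lower member with an entry and the highest level per kb, with motif letters in capitals. Gm35082 (chr7:100674771-100675070, plus strand) holds TGACTCA from 71 bases before the start, Gm36161 (chr13:120010092-120010391, plus strand) holds the interferon element from 40 bases after the start, and Gm39321 (chr9:42141831-42142130, plus strand) and Dubr (chr16:50732724-50733023, minus strand) hold none of the 3 motifs. A match describes the letters only.
Gm35082: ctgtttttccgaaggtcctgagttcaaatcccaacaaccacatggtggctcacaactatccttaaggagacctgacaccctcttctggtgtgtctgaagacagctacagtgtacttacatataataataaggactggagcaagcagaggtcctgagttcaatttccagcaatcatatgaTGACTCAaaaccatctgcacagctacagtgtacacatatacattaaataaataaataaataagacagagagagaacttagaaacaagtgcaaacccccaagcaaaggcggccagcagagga
Gm39321: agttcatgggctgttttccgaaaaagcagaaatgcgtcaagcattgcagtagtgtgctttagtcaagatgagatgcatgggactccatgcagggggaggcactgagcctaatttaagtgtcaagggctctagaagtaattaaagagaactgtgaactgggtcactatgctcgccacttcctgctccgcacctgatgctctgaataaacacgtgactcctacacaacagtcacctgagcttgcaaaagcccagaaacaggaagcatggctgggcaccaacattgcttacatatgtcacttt
Gm36161: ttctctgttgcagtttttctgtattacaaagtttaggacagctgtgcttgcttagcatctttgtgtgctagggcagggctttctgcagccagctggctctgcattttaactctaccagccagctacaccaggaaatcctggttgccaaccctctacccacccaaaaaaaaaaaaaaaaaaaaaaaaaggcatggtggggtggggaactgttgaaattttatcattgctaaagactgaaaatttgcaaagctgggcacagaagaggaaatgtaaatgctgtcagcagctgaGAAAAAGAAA
Dubr: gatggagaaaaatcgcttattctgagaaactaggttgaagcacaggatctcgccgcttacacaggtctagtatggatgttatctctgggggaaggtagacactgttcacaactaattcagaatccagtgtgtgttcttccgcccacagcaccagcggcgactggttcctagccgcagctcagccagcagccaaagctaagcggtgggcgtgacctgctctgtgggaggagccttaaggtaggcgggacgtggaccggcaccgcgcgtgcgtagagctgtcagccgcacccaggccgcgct

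LincRNAs often lie beside a protein-coding gene, so each member was set beside the nearest tested one. The median distance was 3579 bases, and 126 members lay within 5 kb or overlapped it. The 2 starts faced each other, head to head, in 68 members, 55 members lay downstream and 37 upstream on the same strand, 34 lay tail to tail, and gene bodies overlapped in 32 members on opposite strands and in 9 on the same strand. Levels of the neighbours were higher per length: among 35 tested head-to-head pairs with starts within 5 kb, the median was 1.07 CPM per kb for the lincRNA and 11.0 CPM per kb for the neighbour, which was the higher in 33 pairs.

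Across the 228 pairs, the log2 fold changes of lincRNA and neighbour had a Spearman rho of 0.28, and 140 pairs (61.4%) had the same sign. Within 5 kb rho was 0.39 over 121 pairs. For 7558 pairs of neighbouring protein-coding genes it was 0.11, with 53.4% of the same sign, and for 3444 such pairs within 5 kb it was 0.12. For lincRNA pairs over 5 kb apart rho was 0.17 (107 pairs). By arrangement it was 0.14 head to head (65 pairs), 0.18 tail to tail (34), 0.21 downstream (53) and 0.51 upstream (36) on the same strand. For overlapping gene bodies it was 0.45 on opposite strands (31) and 0.60 on the same strand (9). These correlations are across genes that share the same 6 libraries, and genes are not independent replicates, so they are a description.

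The neighbours of the called members moved in some pairs and not in others. Sorl1, a sorting receptor gene whose start lies 17696 bases from that of Gm39321, was at 126, 150 and 148 CPM in fl/fl and 336, 255 and 377 CPM in Δ/Δ, and rose (log2 fold change 1.20, SE 0.14, edgeR adjusted p = 0.00795, but 0.0569 and 0.0590 without fl/fl replicates 1 and 2). Bcl9l, a Wnt pathway coactivator gene, lies 3066 bases from the start of Gm47204 and 645 bases from C030014I23Rik, which is upstream on the same strand. Bcl9l was at 22.2, 22.2 and 21.8 CPM in fl/fl and 38.2, 31.1 and 45.4 CPM in Δ/Δ, past the adjusted p but under the fold limit (log2 fold change 0.80, SE 0.14, edgeR adjusted p = 0.0247). Without fl/fl replicate 1, 2 or 3 its adjusted p was 0.132, 0.131 and 0.100. Bbx, 286904 bases from Dubr, was at 55.9 ± 3.38 and 37.0 ± 5.96 CPM (SD, n = 3, log2 fold change −0.59, edgeR adjusted p = 0.0408), and its adjusted p was 0.137, 0.176 and 0.128 without fl/fl replicates 1, 2 and 3 and 0.0987 without Δ/Δ replicate 3.

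Gm21188, the neighbour of Gm36161, fell with it, from 6.96, 5.41 and 2.54 CPM in fl/fl to 1.60, 0.691 and 0.787 CPM in Δ/Δ (log2 fold change −2.26, SE 0.47, edgeR adjusted p = 0.0494). It was not called without fl/fl replicate 1 or 2 (0.197 and 0.186), without Δ/Δ replicate 2 or 3 (0.0773 and 0.130) or with limma-voom (0.0819). Within 1 Mb of Gm36161, 3 of 12 other tested genes were called, Gm21188, 3110070M22Rik and BC147527, the last from 36.3 ± 5.55 to 15.1 ± 4.51 CPM (SD, n = 3), all lower. The adjusted p of 3110070M22Rik was 0.167, 0.142 and 0.0885 and that of BC147527 0.142, 0.136 and 0.0635 without fl/fl replicates 1, 2 and 3, and 3110070M22Rik had 0.0619 without Δ/Δ replicate 2. With the replicate number as a block, 3110070M22Rik (edgeR adjusted p = 0.0826) and BC147527 (0.0554) were not called. This stretch holds similar predicted genes, and how far they share reads was not tested. The remaining neighbours did not pass an adjusted p of 0.05 in the main fit: Fam168a beside Gm35082 (log2 fold change −0.26, edgeR adjusted p = 0.0516, and 0.0486 without Δ/Δ replicate 1), Tgif1 beside Gm26510 (0.14), Plxna1 beside Gm1965 (0.43), Lrp8 beside 4933424M12Rik (−0.04), Zfp825 beside Gm47469 (0.17) and Med7 (−0.13). Fam168a also had an adjusted p of 0.0493 by edgeR with a stricter filter on low counts and of 0.0274 by DESeq2. The sign rested on single libraries for Plxna1 (−0.17 without Δ/Δ replicate 2) and Lrp8 (0.08, 0.13 and 0.11 without fl/fl replicate 1, Δ/Δ replicate 1 and Δ/Δ replicate 3).

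**Figure D5:**
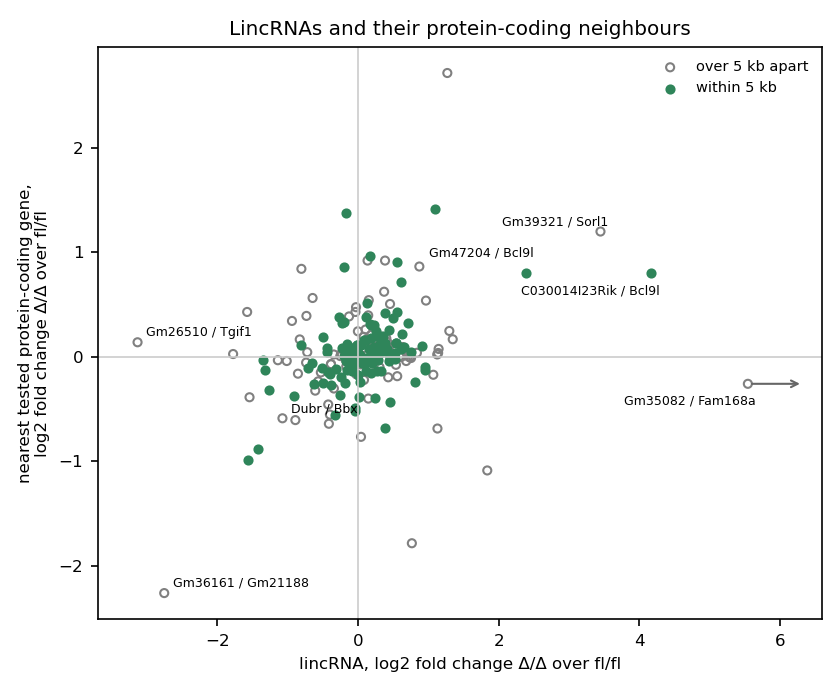
Log2 fold change of Δ/Δ over fl/fl of each tested lincRNA (horizontal axis) and of its nearest tested protein-coding gene (vertical axis), filled green within 5 kb and open grey farther apart, with called lincRNAs named where either value is large. Gm39321 and Sorl1 lie high together (3.45 and 1.20) and Gm36161 and Gm21188 low together (−2.76 and −2.26), while Gm26510 and Gm35082, drawn at its lower bound with an arrow, lie far from 0 with neighbours near it.

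The selection was sharp at its edge. Just inside 0.5 CPM were Gm2093, with no fl/fl read and 0.737, 0.323 and 0.481 CPM in Δ/Δ (mean 0.513), and Gm47814, with 0.354 ± 0.348 CPM in fl/fl and 0.519 ± 0.0900 in Δ/Δ (SD, n = 3). Just outside were 2700016F22Rik, with a mean of 0.49968 CPM in fl/fl, and Gm48653, with a mean of 0.499 CPM in Δ/Δ. Gm2093 was among the 7 members not tested, and against the floor of 3 pooled fl/fl reads its Δ/Δ mean was at least 13.1-fold higher.

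Libraries of the Δ/Δ genotype varied more among themselves. Over the 57 members with a mean of 5 CPM or more, the median coefficient of variation was 9.79% in fl/fl and 12.9% in Δ/Δ, and it was higher in Δ/Δ for 37 of them. Over 9615 tested genes of that level it was 5.99% and 9.36%. Δ/Δ replicate 3 was the highest of the 6 libraries in 65 of the 235 members (27.7%) and in 2843 of the 12894 genes tested.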

How the data were processed

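RNA of 6 cDC1 cultures was sequenced after poly(A) selection with a directional kit, in paired 75-base reads. Per the study's methods the authors aligned reads to mm10 with STAR 2.6.1a and Gencode vM19 and deposited the count of uniquely mapped read pairs per gene, not normalised. Read pairs on genes were 79.1 to 79.7% of each library and the rest were left out. Classes and positions came from GENCODE M21 (37 identifiers not found).

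CPM was computed from the counts. edgeR 4.0.16 (R 4.3.3; TMM, filterByExpr with a minimum count of 10, glmQLFit, glmQLFTest, genotype alone) tested 12894 genes with Benjamini-Hochberg adjustment. The fit was tested on simulated data. No library pair agreed within sampling noise (chi-square per degree of freedom 5.02 or more). Library sizes of 21693217 to 26788296 put 3 read pairs pooled over a genotype at 0.0393 CPM in fl/fl and 0.0435 in Δ/Δ, and such floors cover counting error only. Alternatives used DESeq2 1.42.0, limma 3.58.1, other filters, libraries left out and other memberships. Python 3.11.15 with pandas 2.3.3, scipy 1.17.1 and matplotlib 3.10.9 was used for the rest.

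Members and lists were chosen with earlier results of these data known. Named were called members, the 10 highest per kb, list members, those nearest 0.5 CPM, neighbours of called members, Jun, Junb, Itgax and markers. Of the other marker lists, 1 of 5 sort genes was called lower (Itgax, a call lost without each fl/fl library in turn), 1 of 7 tested pDC genes higher (Ccr9; 2 by DESeq2 and without Δ/Δ replicate 1 or 2), and none of the tested B cell (6), monocyte and macrophage (6), neutrophil (4) or basophil and mast cell (1) genes by edgeR or limma-voom, while DESeq2 called 1 B cell gene and 3 basophil and mast cell genes that did not pass the edgeR filter. Without Δ/Δ replicate 1 edgeR called 1 B cell, 1 monocyte and macrophage and 2 basophil and mast cell genes, all higher. Without the filter on low counts it called the neutrophil gene Ngp lower and 1 B cell and 1 basophil and mast cell gene higher. With the replicate number as a block it called Ngp lower and 1 B cell gene higher. In these lists 1, 2, 1 and 0 genes had an unadjusted p under 0.05, and Adgre1, higher in Δ/Δ (25.2 ± 3.76 to 47.0 ± 8.34 CPM, SD, n = 3), an edgeR adjusted p of 0.0317, but of 0.143, 0.148 and 0.0756 without fl/fl replicates 1, 2 and 3 and 0.0774 without Δ/Δ replicate 3, and it was called without Δ/Δ replicate 1 (log2 fold change 1.04, edgeR adjusted p = 0.00745). No T and NK cell or erythroid gene passed the filter. Among the tested pDC genes 3 had an unadjusted p under 0.05, with Ccr9 and Siglech higher and Bst2 lower in Δ/Δ. Bst2, the most abundant of that list, was at 100 ± 10.6 and 75.4 ± 5.15 CPM, without overlap (log2 fold change −0.41, edgeR adjusted p = 0.0572). Of 12 tested AP-1 and Cre driver genes edgeR called Itgax alone, DESeq2 called 4 and limma-voom 2, and 5 had an unadjusted p under 0.05. The edgeR count was 0 without each fl/fl replicate in turn and 4, 2 of them higher, without Δ/Δ replicate 1. It was 3 with the replicate number as a block and 4 without the filter on low counts.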

Additional observations from a re-analysis of the deposited data

How the results depend on the processing

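The 11 called members were all called with DESeq2's size factors and were among the 13 called by DESeq2's Wald test and without a filter, which added 1700009J07Rik and Gm2093. limma-voom called 10, without Gm47469 (adjusted p = 0.0658), and the stricter filter 8, as C030014I23Rik, Gm26510 and Gm35082 no longer entered the test. An adjusted p alone gave 12. With 1 library left out, 1 to 15 members were called, and 74 to 579 of all genes, against 240 with all 6 libraries. All genes called numbered 432 by DESeq2's Wald test and 500 by adjusted p alone. Of the 153 members without exon overlap 5 were called (147 tested), and of the 82 with overlap 6 (81 tested), a difference whose cause was not tested. Membership by the mean over all 6 libraries gave 10 and membership at 1 CPM 10. Spearman's rho between lincRNA and neighbour was 0.32 with limma-voom, 0.34 with the stricter filter, 0.39 for pairs within 5 kb, and 0.22 to 0.28 with 1 library left out (the cause was not tested). The Δ/Δ share of reads exceeded the fl/fl share by 0.0221 percentage points, by 0.00981 without Gm42418 and by 0.0134 to 0.0289 with 1 library left out. No called member changed sign in any fit. At these depths a level under 0.0393 CPM in fl/fl or 0.0435 CPM in Δ/Δ is under 3 read pairs per genotype.

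With the replicate number as a block, 5 members were called (Gm39321, Gm35082, 2310031A07Rik, Gm36161 and Dubr), 207 of all genes, and rho was 0.31. Same-numbered libraries had correlations of deviations of 0.091, −0.148 and 0.200, and the other pairs −0.221 to 0.152. Not every library correlated best with its own number. As deviations from means of 3 libraries are tied together, these values cannot decide whether the numbers pair the libraries.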

Other observations

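Some members that were not called lay beside a protein-coding gene that passed an adjusted p of 0.05. They were picked after their values were seen. Gm17200 overlaps the chemokine receptor gene Ccr9 on the same strand and was at 1.35 ± 0.497 CPM in fl/fl and 2.88 ± 1.05 in Δ/Δ (SD, n = 3, edgeR adjusted p = 0.209), and Ccr9 rose from 22.9 ± 1.76 to 60.6 ± 9.53 CPM (edgeR adjusted p = 0.00333). Gm28935 lies 11633 bases from Ms4a4a, which rose from 3.94 ± 2.24 to 25.7 ± 4.85 CPM (edgeR adjusted p = 0.0157, but 0.0520 and 0.104 without fl/fl replicates 1 and 2), and was itself at 0.525 ± 0.402 and 1.26 ± 0.313 CPM (edgeR adjusted p = 0.275). Gm26637 overlaps Eif2ak2, the gene of an interferon-induced kinase that senses double-stranded RNA, on the opposite strand. Eif2ak2 was at 106 ± 9.37 and 56.9 ± 10.8 CPM (log2 fold change −0.89, edgeR adjusted p = 0.0168, but 0.0953 and 0.0971 without fl/fl replicates 1 and 2 and 0.0529 without Δ/Δ replicate 3, and called without Δ/Δ replicate 1, at −1.03 and 0.00318) and Gm26637 at 1.70 ± 0.374 and 0.624 ± 0.385 CPM, without overlap (edgeR adjusted p = 0.193). Gm46224 and its neighbour Lilrb4a, 29729 bases upstream on the same strand, differed in sign, with log2 fold changes of −0.81 and 0.84 (edgeR adjusted p = 0.0239 and 0.00454), and Gm46224 had 0.133, 0.137 and 0.0693 without fl/fl replicates 1, 2 and 3 and 0.0607 without Δ/Δ replicate 3.

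Near Gm26510, 1 of 17 other tested genes within 1 Mb was called, Emilin2, which rose from 13.2, 16.1 and 16.8 CPM in fl/fl to 123, 176 and 62.3 CPM in Δ/Δ (edgeR adjusted p = 0.00812, but 0.0685 and 0.0661 without fl/fl replicates 1 and 2) while Gm26510 fell. Gm47662, which like AW112010 was called without Δ/Δ replicate 2 and in no other fit, was at 2.71, 2.05 and 2.11 CPM in fl/fl and 0.205, 5.35 and 0.437 CPM in Δ/Δ.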
